A study of Rattus norvegicus with 6 samples.

Results

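The genes described here are those that mark dendritic cells of the spleen. The list holds 10 genes by name, namely Flt3, Xcr1, Clec9a, Batf3, Zbtb46, Tcf4, Spib, Runx2, Siglech and Ptcra, and each was represented by the probe set with that symbol alone, taking the highest mean over all arrays. Of these 10 genes, 9 were measured by such a probe set, among 18166 genes in all, and each of the 9 had a single one. Siglech was without a probe set of its own in the annotation used and was not analysed here. No filter on low values was applied, so none of the 9 was lost.

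Spleens came from male Sprague-Dawley rats 10 days after surgery. In 3 rats the portal vein was narrowed by partial portal vein ligation (PPVL), which raises portal pressure in a liver without cirrhosis, and 3 sham rats had the same operation without a ligature. Total RNA of a piece of whole spleen from each rat was hybridised to an Affymetrix Rat Gene 2.0 ST array of its own. The values are log2 intensities after Robust Multiarray Average (RMA) normalization, so a difference of 1 is a doubling, and the array medians lay between 6.22 and 6.33. The spleen sample of PPVL rat 1 had high transcripts of the exocrine pancreas, with a mean log2 level of 10.38 over 14 genes against 5.61 to 5.70 in the other 5 rats. The 9 measured genes of the list for B cells, the main lymphocytes of the spleen, averaged 10.01 to 10.20 in PPVL and 9.95 to 10.17 in sham spleens. They include Rag1, which is also in the list of T cells and precursors and was at 4.47 in both groups. The labels give no batch.

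Dendritic cells take up antigen and present it to T cells. Conventional dendritic cells grow from bone marrow precursors under Flt3 ligand and fall into a type that cross-presents antigen from dead cells to CD8 T cells (conventional DC1) and a type that mainly primes CD4 T cells (conventional DC2). Plasmacytoid dendritic cells make type I interferon when Toll-like receptors in their endosomes meet viral nucleic acid. In the spleen these cells lie in the marginal zone, the T cell area and the red pulp. Most of the roles given below were worked out in mice.

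One of the 9 genes differed between the groups at the threshold of the study, an unadjusted p under 0.05 in limma, an empirical Bayes test fitted across all probe sets. Flt3 was 1.2-fold higher in PPVL spleens. None of the 9 was lower. Across the whole array 4.23% of genes were past this threshold, 2.69% higher and 1.55% lower, so 1 call among 9 genes does not set the list apart. After Benjamini-Hochberg adjustment 0% of the 18166 genes were past 0.05, where 769 were past the unadjusted threshold, and the smallest adjusted p was 0.663. The log2 fold changes of the 9 genes ran from -0.11 to 0.27 with a median of 0.10, beside a median of 0.00 over all genes, and 7 of the 9 were positive, beside 51.7% of all genes. The median standard error was 0.10 for the 9 genes and 0.11 for all genes. In whole spleen, a lower or higher number of dendritic cells and a change in RNA per cell cannot be told apart.

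**Figure D1:**
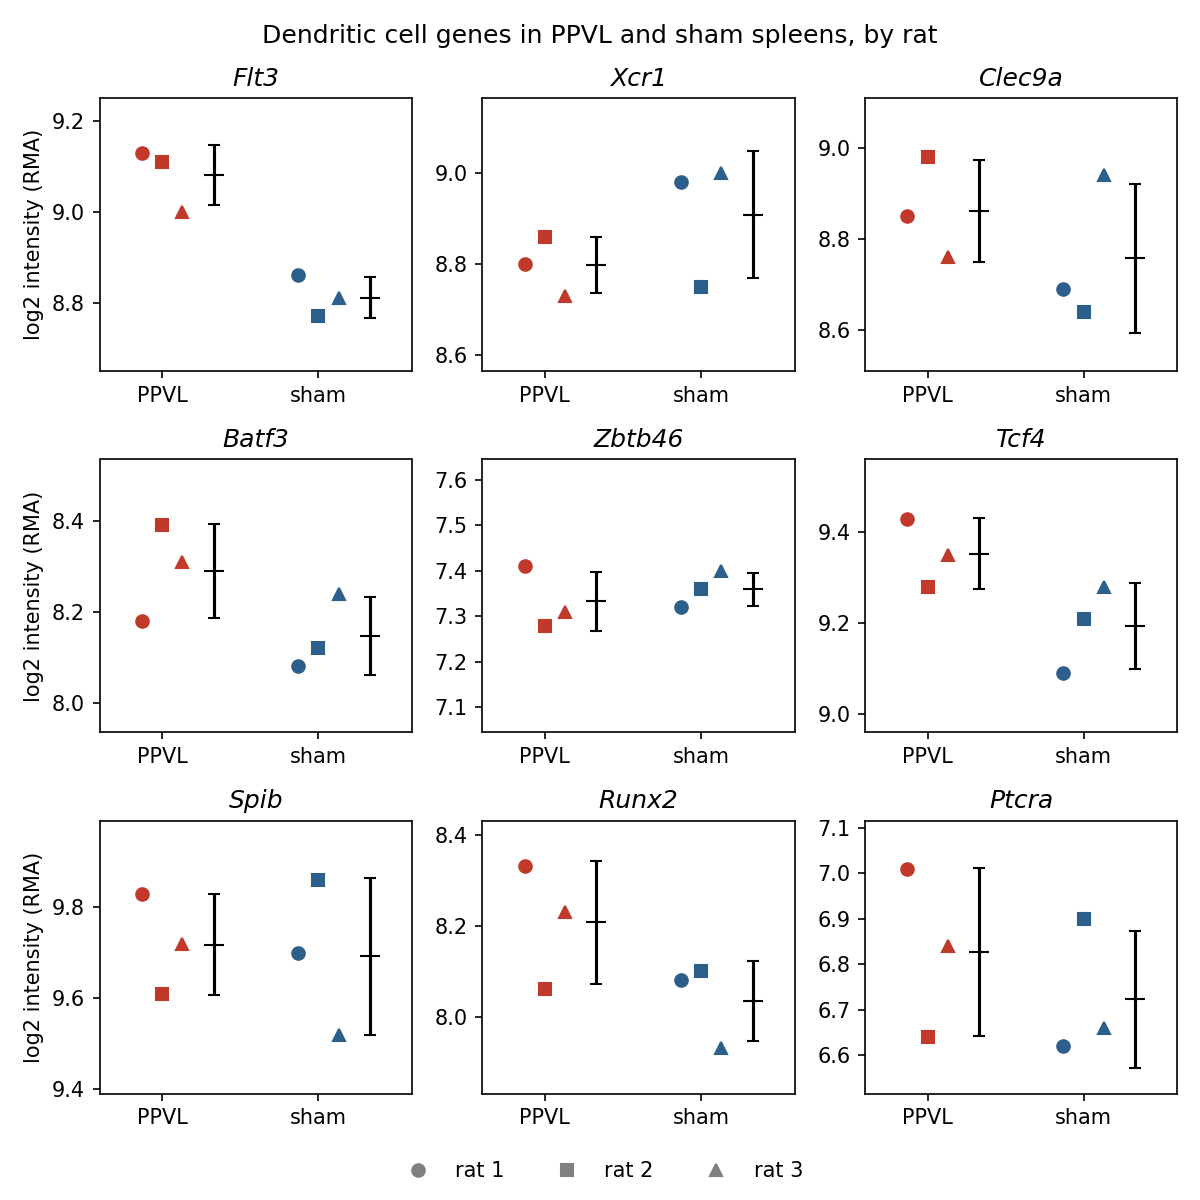
Log2 intensity (RMA) of the 9 dendritic cell genes in 3 PPVL (red) and 3 sham (blue) spleens, with a symbol for each rat and the mean ± SD of each group in black. Every panel spans the same range of log2 values. The groups lie apart for Flt3, with PPVL spleens at 9.00 to 9.13 and sham spleens at 8.77 to 8.86, and overlap for the other 8 genes.

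Flt3 encodes the receptor tyrosine kinase that dendritic cell precursors and mature dendritic cells need to respond to Flt3 ligand, and it also marks early blood progenitors. Its log2 level was 9.13, 9.11 and 9.00 in PPVL rats 1 to 3, against 8.86, 8.77 and 8.81 in sham rats 1 to 3. Every PPVL spleen was above every sham spleen, as was the case for 6.64% of all genes. The group means were 9.08 ± 0.07 in PPVL and 8.81 ± 0.04 in sham spleens (SD, n = 3 each), a log2 fold change of 0.27 (standard error, SE, 0.08, unadjusted p = 0.0143, adjusted p = 0.981 from limma). The 95% interval of the difference ran from 0.07 to 0.46 on the log2 scale. An exact two-sided permutation test gave p = 0.1, the smallest that 3 rats against 3 allow. Without PPVL rat 1, the sample with high pancreas transcripts, the log2 fold change was 0.25 and the unadjusted p was 0.0513 in limma. The study lists Flt3 among the genes it found higher on these arrays, so its direction here is not independent evidence.

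The stretch of 250 bases in front of the Flt3 start is shown because Flt3 is the gene that passed, and the one in front of Irf7 because Irf7, described below, was the plasmacytoid dendritic cell gene that fell. Both are from the RefSeq promoter table of the GRCr8 assembly and are written 5′ to 3′ in the direction of the gene. Flt3 lies on the plus strand, and the stretch is chr12:12659785-12660034. Capitals mark GGAA on either strand, the core that Ets factors such as Spib bind. Irf7 lies on the minus strand, and the stretch is chr1:205800024-205800273. Capitals mark GAAANNGAAA on either strand, the core letters of an interferon-stimulated response element.
Flt3: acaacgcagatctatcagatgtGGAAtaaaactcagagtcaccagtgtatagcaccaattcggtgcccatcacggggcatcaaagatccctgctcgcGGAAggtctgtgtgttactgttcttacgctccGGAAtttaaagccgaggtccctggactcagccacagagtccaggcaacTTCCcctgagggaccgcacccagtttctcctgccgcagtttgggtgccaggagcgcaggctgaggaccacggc
Irf7: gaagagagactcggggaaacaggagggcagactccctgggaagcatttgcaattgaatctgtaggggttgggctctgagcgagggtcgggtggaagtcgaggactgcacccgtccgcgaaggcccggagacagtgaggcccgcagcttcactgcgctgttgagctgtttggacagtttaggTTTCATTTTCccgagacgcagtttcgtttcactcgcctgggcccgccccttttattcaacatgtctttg
Flt3 held 4 matches to GGAA and Irf7 held 1 match to GAAANNGAAA. GGAA was found in front of each of the 9 dendritic cell genes and in 93.2% of the 33469 stretches of 250 bases in the table. GAAANNGAAA was found in front of 0 of the 9 genes and in 3.41% of all stretches. CANNTG, the E-box that Tcf4 and related proteins bind, was found in front of 7 of the 9 genes and in 65.5% of all stretches, and was not among the letters in front of Tcf4 or Xcr1. The GGAA and GAAANNGAAA patterns can overlap each other. These matches are letters in a sequence, and binding was not measured.

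Of the other surface receptors, Xcr1 and Clec9a belong to conventional DC1. Xcr1 is the receptor for the chemokine Xcl1, through which T cells and natural killer cells attract these cells. Its log2 level was 8.80, 8.86 and 8.73 in PPVL rats 1 to 3, against 8.98, 8.75 and 9.00 in sham rats 1 to 3. The groups overlapped through sham rat 2, which lay below 2 of the PPVL spleens. Xcr1 had the lowest log2 fold change of the 9 genes, -0.11 (SE 0.10, unadjusted p = 0.312 in limma), with a 95% interval from -0.35 to 0.13. Clec9a, also named DNGR-1, is a lectin that recognises actin filaments exposed by dead cells. It was at 8.85, 8.98 and 8.76 in PPVL rats 1 to 3, against 8.69, 8.64 and 8.94 in sham rats 1 to 3. Sham rat 3 lay above 2 of the PPVL spleens. The log2 fold change of Clec9a was 0.10 (SE 0.11), and its 95% interval, -0.17 to 0.38, holds folds from 0.889 to 1.30. It was 0.05 without PPVL rat 2 or sham rat 2 and 0.20 without sham rat 3.

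Batf3 and Zbtb46 are transcription factors of conventional dendritic cells. Batf3 is needed for conventional DC1 to develop, and it had log2 levels of 8.18, 8.39 and 8.31 in PPVL rats 1 to 3, against 8.08, 8.12 and 8.24 in sham rats 1 to 3. The groups overlapped only because PPVL rat 1 was below sham rat 3. Its log2 fold change was 0.14 (SE 0.10, unadjusted p = 0.178 in limma), with a 95% interval from -0.08 to 0.37. Zbtb46 is a zinc finger factor that separates conventional dendritic cells from other myeloid cells and is also made by endothelial cells. It was at 7.41, 7.28 and 7.31 in PPVL rats 1 to 3, against 7.32, 7.36 and 7.40 in sham rats 1 to 3. Its 6 values spanned 0.125, the narrowest range of the 9 genes, and the log2 fold change was -0.03 (SE 0.08). The 95% interval of Zbtb46 holds folds from 0.859 to 1.12.

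Tcf4, Spib and Runx2 are transcription factors of plasmacytoid dendritic cells. Tcf4, also named E2-2, is the factor that plasmacytoid dendritic cells need to arise and to keep their identity, and B cells and stromal cells make it too. Its log2 level was 9.43, 9.28 and 9.35 in PPVL rats 1 to 3, against 9.09, 9.21 and 9.28 in sham rats 1 to 3. The groups met at PPVL rat 2 and sham rat 3, which had nearly the same value. The log2 fold change of Tcf4 was 0.16 (SE 0.09, unadjusted p = 0.131 in limma), with a 95% interval from -0.06 to 0.38. Runx2, which is known for its role in bone and which lets plasmacytoid dendritic cells leave the bone marrow in mice, was at 8.33, 8.06 and 8.23 in PPVL rats 1 to 3, against 8.08, 8.10 and 7.93 in sham rats 1 to 3. PPVL rat 2 lay below 2 of the sham spleens. Its log2 fold change was 0.17 (SE 0.10, unadjusted p = 0.138 in limma), with a 95% interval from -0.07 to 0.42. Spib, an Ets factor that B cells also use, was at 9.83, 9.61 and 9.72 in PPVL rats 1 to 3, against 9.70, 9.86 and 9.52 in sham rats 1 to 3. Sham spleens held both the highest and the lowest value of Spib. Its log2 fold change was 0.03 (SE 0.12), of either sign depending on the rat left out, at -0.06 to 0.11.

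Ptcra encodes the pre-T cell receptor α chain, which developing T cells use in the thymus and which is a marker of plasmacytoid dendritic cells elsewhere. It was at 7.01, 6.64 and 6.84 in PPVL rats 1 to 3, against 6.62, 6.90 and 6.66 in sham rats 1 to 3. PPVL rat 1 was highest and sham rat 1 lowest, and the groups overlapped widely. The log2 fold change of Ptcra was 0.10 (SE 0.13, unadjusted p = 0.448 in limma), and it was 0.01 without PPVL rat 1 and 0.20 without PPVL rat 2. Its 95% interval, -0.20 to 0.41, was the widest of the 9 genes. With a rat left out, the log2 fold change ran from -0.19 to -0.06 for Xcr1, from 0.10 to 0.20 for Batf3, from 0.11 to 0.20 for Tcf4 and from 0.11 to 0.25 for Runx2, and none of these passed in any setting tried.

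**Figure D2:**
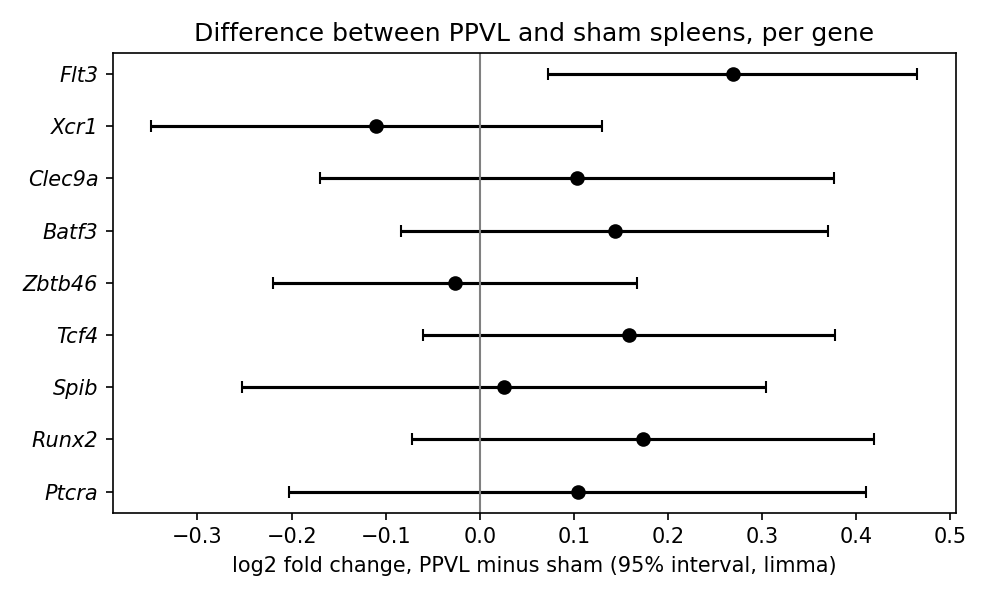
Log2 fold change (PPVL minus sham) of each of the 9 dendritic cell genes, with the 95% interval from limma as a bar. The interval of Flt3, 0.07 to 0.46, lies above 0, and the intervals of the other 8 genes hold 0.

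The 9 genes also varied between the rats of a group. In some rats 3 conventional DC1 genes and a set of plasmacytoid dendritic cell genes deviated in opposite directions from the mean of the rat's own group. This pattern was noticed in the values, in a set that leaves out Tcf4, and was not tested. Deviations within a group cancel each other, so the rats are not independent observations of it. Xcr1, Clec9a and Batf3 deviated on average by -0.04, 0.09 and -0.05 in PPVL rats 1 to 3 and by -0.02, -0.10 and 0.12 in sham rats 1 to 3, on the log2 scale. Spib, Runx2 and Ptcra deviated by 0.14, -0.15 and 0.01 in PPVL rats 1 to 3 and by -0.02, 0.13 and -0.11 in sham rats 1 to 3. PPVL rat 2 and sham rat 3 were thus high for Xcr1, Clec9a and Batf3 and low for the other 3 genes. Sham rat 2 was the reverse. The 18 further conventional DC1 genes described below had mean log2 levels of 8.73, 8.71 and 8.65 in PPVL rats 1 to 3. In sham rats 1 to 3 these were 8.67, 8.72 and 8.67, so that sham rat 2 was the highest sham rat. The 26 further plasmacytoid dendritic cell genes were at 8.51, 8.43 and 8.52 in PPVL rats 1 to 3 and at 8.38, 8.54 and 8.46 in sham rats 1 to 3. Tcf4 deviated by 0.08, -0.07 and -0.01 in PPVL rats 1 to 3 and by -0.10, 0.02 and 0.08 in sham rats 1 to 3, so that it was low in PPVL rat 2 but high in sham rat 3. The B cell genes deviated by 0.05, -0.12 and 0.07 in PPVL rats 1 to 3 and by -0.13, 0.05 and 0.08 in sham rats 1 to 3. The standard errors above are of differences between group means and do not measure the spread of these deviations. Whether the deviations exceed noise was not tested, and neither was the part of B cells in them.

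**Figure D3:**
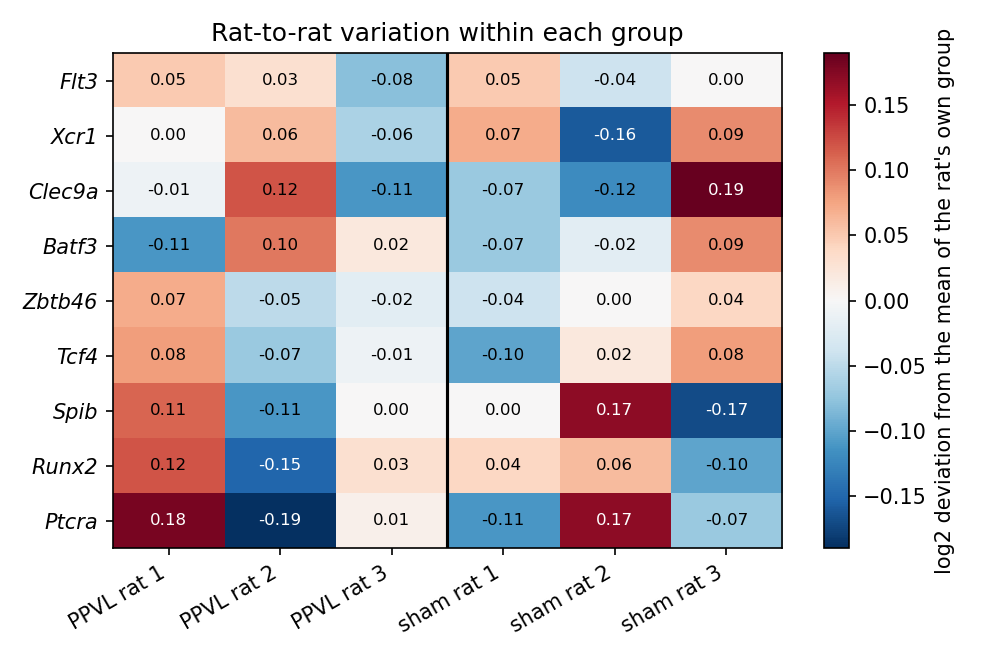
Deviation of each of the 9 dendritic cell genes from the mean of the rat's own group, in log2 units, for PPVL rats 1 to 3 (left of the line) and sham rats 1 to 3 (right). Red is above and blue below the group mean. Ptcra was at 0.18 in PPVL rat 1 and -0.19 in PPVL rat 2, and Clec9a was at 0.19 in sham rat 3.

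Markers of other cells that share these genes were read beside them. Of 9 measured B cell genes, which bear on Spib and Tcf4, 0 passed the unadjusted threshold in limma and the median log2 fold change was 0.09. Ms4a1, the B cell surface protein CD20, had a log2 fold change of -0.11 (SE 0.13). Of 8 measured genes of stem and progenitor cells, which bear on Flt3, 0 passed and the median was 0.11. Their mean log2 level was 7.08, 7.23 and 6.99 in PPVL rats 1 to 3, against 7.07, 7.00 and 6.92 in sham rats 1 to 3. Cd34, a surface protein of progenitors and endothelium, was at 6.72 in PPVL rat 1 and at 5.80 to 6.06 in the other 5 rats, and its log2 fold change, 0.34 (SE 0.22), did not pass. It was 0.08 without PPVL rat 1 and 0.54, past the threshold, without PPVL rat 2. Of 8 endothelial genes, which bear on Zbtb46 and Tcf4, 0 passed and the median was 0.14. Of 12 T cell genes, which bear on Ptcra, 0 passed and the median was -0.02, with Cd3e, a chain of the CD3 complex, at a log2 fold change of -0.03 (SE 0.12). The part of these cells in the values of the 9 genes was not tested.

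Of 12 genes of stroma and bone, which bear on Runx2 and Tcf4, 5 were higher and 0 lower, and the median log2 fold change was 0.28. Across the whole array 2.69% of genes were higher at this threshold. The 5 were Col1a1, Col1a2 and Col3a1, chains of fibrillar collagen, Pdgfrb, a receptor of platelet-derived growth factors on pericytes and fibroblasts, and Alpl, an alkaline phosphatase of bone and other tissues. The bone genes Sp7, Bglap, Ibsp and Dmp1 had log2 fold changes of -0.03, 0.01, -0.06 and -0.10 and did not pass. The study names Col1a1 and other matrix genes as higher on these arrays, so this list is not independent evidence of its direction. Col1a1 had a log2 fold change of 1.51 (SE 0.43), and its log2 level was 10.96 in PPVL rat 1, which also had the highest Runx2. PPVL rat 2 had Col1a1 at 9.80, above every sham spleen, but Runx2 at 8.06, below sham rats 1 and 2. The mean log2 level of the list was 7.85, 7.53 and 7.36 in PPVL rats 1 to 3, against 7.23, 7.28 and 7.03 in sham rats 1 to 3. Without PPVL rat 1, Col1a2, Col3a1, Pdgfrb and Alpl did not pass, at log2 fold changes of 0.54, 0.57, 0.39 and 0.39. Without sham rat 3, these were 0.69, 0.74, 0.35 and 0.27, and again none of the 4 passed. Col1a2 and Col3a1 also lost the threshold without sham rat 1, at 0.98 and 0.92, and Alpl without PPVL rat 2, at 0.24. Of 13 macrophage genes 2 were higher and 0 lower, with a median of 0.11. These were Mertk, a receptor for the uptake of dying cells, at a log2 fold change of 0.37 (SE 0.09), and Timd4, which binds phosphatidylserine on them, at 0.28 (SE 0.08). Adgre1, the macrophage marker F4/80, had 0.11 (SE 0.08) and did not pass. The part of stroma and macrophages in the values of the 9 genes was not tested.

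Beyond the 9 genes, 98 further genes of dendritic cells were measured, drawn from lists for conventional DC1, conventional DC2, development, plasmacytoid dendritic cells, mature dendritic cells, ligands and cytokines. At the unadjusted threshold, 2 of these were higher and 2 lower, which is 4.08% against 4.23% of all genes. Their median log2 fold change was 0.04, and 62 of the 98 were positive. Without sham rat 2, 8 of the 98 passed, and without PPVL rat 2 or sham rat 3, 7 passed. Of all genes, 4.65% passed without sham rat 2, 5.06% without PPVL rat 2 and 4.55% without sham rat 3. Whether the lists differ from all genes in these settings was not tested.

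Both genes that were higher belong to the list of conventional DC2, of which 19 were measured. Across the whole array 2.69% of genes were higher, and whether this list differs from all genes was not tested. The 2 genes are C-type lectins, receptors for sugars, which macrophages make as well. Cd209d was at 5.69, 5.76 and 5.77 in PPVL rats 1 to 3, against 5.34, 5.16 and 5.29 in sham rats 1 to 3. The groups lay apart with PPVL higher, as was the case for 6.64% of all genes. The log2 fold change was 0.48 (SE 0.09, unadjusted p = 0.00104, adjusted p = 0.981 from limma). Its call held in each rat left out, at 0.42 to 0.51. Cd209d was dim, at percentile 27.7 of all genes by level, and was absent from the setting that removed dim probe sets. Cd209a and Cd209e, of the same list and also dim, had log2 fold changes of -0.21 (SE 0.16) and -0.13 (SE 0.11) and did not pass. Cd209b and Cd209c, also of this list, were not analysed here. The study lists Cd209b, Cd209c and Cd209d among its higher genes, so the direction of Cd209d here is not independent evidence. Clec10a was at 7.68, 7.49 and 7.33 in PPVL rats 1 to 3, against 7.00, 7.16 and 7.28 in sham rats 1 to 3. The groups lay apart by a narrow gap, and the log2 fold change was 0.35 (SE 0.13, unadjusted p = 0.0268 in limma). Clec10a fell short of the threshold when PPVL rat 1, PPVL rat 2, sham rat 1 or sham rat 2 was left out, with values of 0.26, 0.36, 0.28 and 0.36. Irf4, a transcription factor of conventional DC2 and of plasma cells, had a log2 fold change of -0.06 (SE 0.09).

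Of 18 measured genes of conventional DC1, 0 passed in limma and the median log2 fold change was 0.03. Irf8, the factor that conventional DC1 and plasmacytoid dendritic cells share, was at 10.73, 10.52 and 10.41 in PPVL rats 1 to 3, against 10.24, 10.45 and 10.40 in sham rats 1 to 3. Only PPVL rat 3 lay within the sham range, and the log2 fold change of 0.19 (SE 0.11) did not pass. Nfil3 and Id2, which act with Batf3 in conventional DC1 development, had 0.13 (SE 0.11) and 0.04 (SE 0.09). Xcl1, the ligand of Xcr1, was at 7.83, 7.81 and 7.89 in PPVL rats 1 to 3, against 8.15, 7.73 and 8.31 in sham rats 1 to 3. Sham rat 2 was the lowest of the 6. Xcl1 had a log2 fold change of -0.22 (SE 0.15, unadjusted p = 0.197 in limma), which was -0.39, past the threshold, without sham rat 2 and -0.10 without sham rat 3. Natural killer cells are a source of Xcl1. Of 8 of their genes 4 were lower, beside 1.55% of all genes, and 0 higher, with a median log2 fold change of -0.23. Those lower were Klrk1, an activating receptor, Prf1 and Gzmb, which kill target cells, and Tbx21, a transcription factor, at -0.26, -0.24, -0.46 and -0.22. Gzmb was dim, at percentile 22 of all genes by level, and was absent from the setting that removed dim probe sets. Each of the 4 genes fell short of the threshold without some of the rats. For Klrk1 these were PPVL rats 2 and 3 and sham rats 1 and 2, with a weakest value of -0.21. For Gzmb they were PPVL rat 2 and sham rats 1 and 3, with a weakest value of -0.37. For Prf1 and Tbx21 they were all rats but sham rat 1, with weakest values of -0.19 and -0.18. The study names natural killer and granzyme genes as lower on these arrays, so this list is not independent evidence of its direction.

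Of 26 measured genes of plasmacytoid dendritic cells, 0 were higher and 1 was lower, beside 2.69% and 1.55% of all genes. Their median log2 fold change was 0.08. The gene that was lower was Irf7, the factor that drives interferon α production and that interferon itself induces in many cells. It was at 9.72, 9.93 and 9.85 in PPVL rats 1 to 3, against 10.81, 10.92 and 10.20 in sham rats 1 to 3. Its log2 fold change was -0.81 (SE 0.19, unadjusted p = 0.00434, adjusted p = 0.981 from limma). Irf7 is among the genes that the study names as lower on these arrays. Tcf4, Spib, Runx2 and Ptcra, which were measured on the same arrays, had log2 fold changes of 0.03 to 0.17. Tlr7, the endosomal receptor for single-stranded RNA, was at 10.79, 10.80 and 10.91 in PPVL rats 1 to 3, against 10.87, 10.95 and 11.30 in sham rats 1 to 3, and its log2 fold change was -0.20 (SE 0.13). Bcl11a and Zeb2, transcription factors that plasmacytoid dendritic cells also need, had 0.09 (SE 0.09) and 0.09 (SE 0.10). Of 10 genes for type I interferons and other cytokines that these cells can secrete, 0 were higher and 1 was lower, beside 1.55% of all genes. It was Tnf, the inflammatory cytokine that macrophages and T cells make as well, with a log2 fold change of -0.39 (SE 0.14), which fell short of the threshold when PPVL rat 2, PPVL rat 3, sham rat 1 or sham rat 2 was left out, with values of -0.34, -0.33, -0.27 and -0.39.

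Of 18 measured genes of mature dendritic cells, which migrate to T cells and costimulate them, 0 passed in limma and the median log2 fold change was 0.07. Ccr7, the receptor that leads them to the T cell area, was at 9.46, 9.20 and 9.22 in PPVL rats 1 to 3, against 9.04, 9.19 and 9.27 in sham rats 1 to 3. The groups overlapped, and the log2 fold change was 0.13 (SE 0.11). Of 11 genes shared by dendritic cells or used in their development, 0 passed and the median was 0.10. Itgax encodes CD11c, the surface integrin most used to find dendritic cells. It was at 7.50, 8.19 and 7.38 in PPVL rats 1 to 3, against 8.19, 8.37 and 7.63 in sham rats 1 to 3. High and low spleens were found in both groups, and the log2 fold change was -0.37 (SE 0.27, unadjusted p = 0.208 in limma). Leaving out PPVL rat 2 gave -0.62, past the unadjusted threshold, and leaving out sham rat 3 gave -0.59, not past it. Without PPVL rat 3 or sham rat 2 the value was -0.22.

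**Figure D4:**
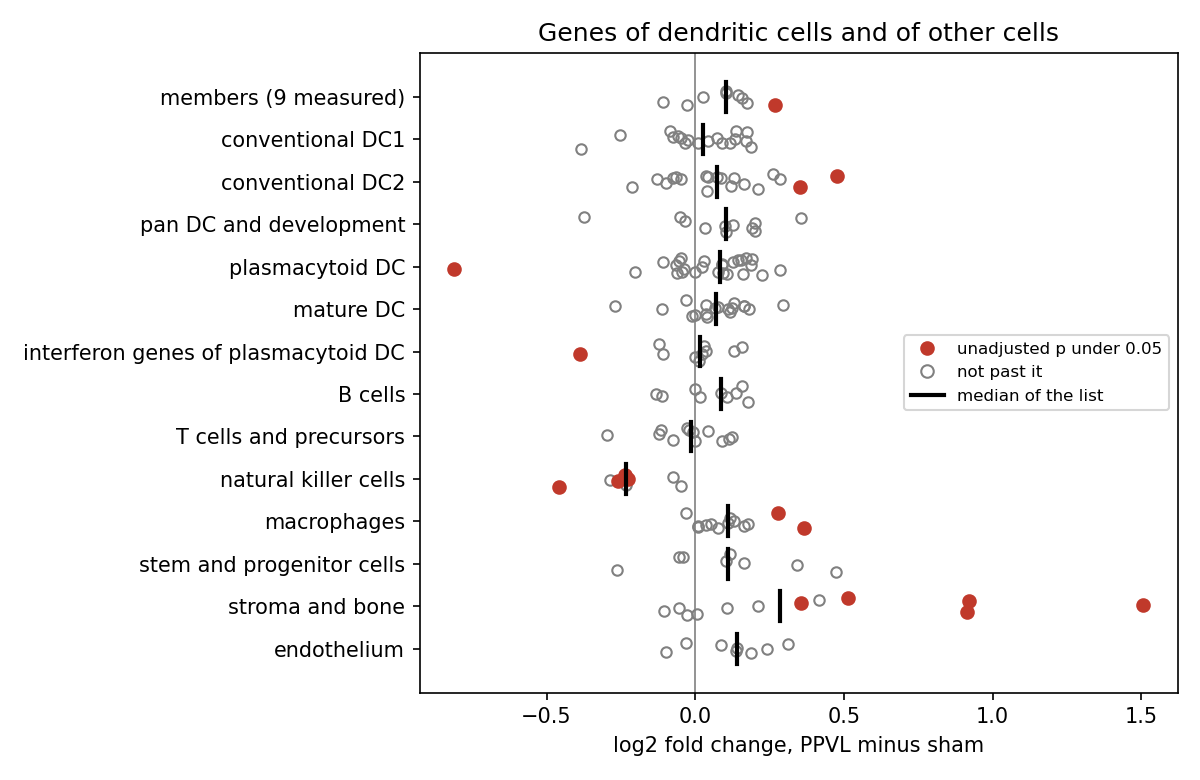
Log2 fold change (PPVL minus sham) of each measured gene in the lists of dendritic cells and of other cells, with the 9 dendritic cell genes at the top, filled points where limma gave an unadjusted p under 0.05, and a black bar at the median of each list. The median is 0.10 for the 9 genes, 0.28 for stroma and bone and -0.23 for natural killer cells.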

How the data were processed

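Spleen mRNA was measured in 3 PPVL and 3 sham rats with 1 Affymetrix Rat Gene 2.0 ST array per rat. The deposited values are log2 intensities, which the authors made by RMA using Transcriptome Analysis Console. Both are named without versions in the submitters' processing notes. The table held 36685 probe sets with 0 missing values. Scanner files were not used here, and the number of arrays limits the precision. RMA equalises the distributions of the arrays, so a shift of most genes together cannot be seen.

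Of the probe sets, 18511 carried 1 gene symbol, 575 several and 17599 none. Current symbols came from the GRCr8 RefSeq table by Entrez identifier, and 18394 matched. Group means were tested by limma 3.58.1 under R 4.3.3, using lmFit and eBayes without covariates on all probe sets, and Benjamini-Hochberg adjustment was over the 18166 genes. The script was tested on simulated data. The 10 genes and the lists were chosen with earlier results of these data known. Named genes were the 10 genes, a fixed set of key genes of the lists and up to 4 further genes per list with the smallest p under 0.05. Of these, Flt3lg, Tlr9 and Pecam1 were among those not analysed here. The stroma and bone list has 5 named genes that passed because Col1a1 was in the fixed set. Sp7, Bglap, Ibsp, Dmp1, Cd209a, Cd209b, Cd209c, Cd209e and Rag1 are also named, beside other genes of their lists. Cd209d, Clec10a, Irf7 and Tnf are all the list genes of dendritic cells past the threshold. In all, 15 alternatives were tried.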

Additional observations from a re-analysis of the deposited data

How the results depend on the processing

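The settings tried were quantile normalization, arrays centred on their medians, array weights, a robust prior or a trend for the variance, averaged probe sets per gene, a fit of named probe sets only, removal of dim probe sets, a replicate block, and leaving out each rat. Among the 9 dendritic cell genes 1 was past an unadjusted p under 0.05 in each of them except without PPVL rat 1, so that the count with a rat left out was 0 to 1. The count over all genes was 463 to 919 with a rat left out. The median of the 9 genes was 0.07 to 0.14 over the settings with a rat left out. The same alternatives for the 98 further dendritic cell genes were added after the data were seen, and their count was 3 to 8 with a rat left out and 7 with the replicate block. Spib, which was not past the threshold in any setting, had a log2 fold change of -0.061 to 0.11 with a rat left out, at -0.029 without PPVL rat 1 and -0.061 without sham rat 3, and of -0.0084 with array weights. In the replicate block 696 of all genes passed, against 769, and Flt3 passed. The labels name no pairs of rats, and the original numbers of the PPVL rats differ from those of the sham rats. The numbers were therefore not taken to pair the rats, and the block is only a setting tried. Same-numbered rats had correlations of -0.13, 0.14 and 0.12 between their deviations from the group means. Of the 3 PPVL rats, PPVL rat 3 alone correlated best with the sham rat of its own number. Under the block Clec10a, Prf1 and Tbx21 did not pass, and Itgax did at its log2 value of -0.37. Alpl did not pass with array weights, quantile normalization or arrays centred on their medians, Col1a2 with array weights, Tbx21 with centred arrays and Gzmb with averaged probe sets, at -0.20. The precision is limited by 3 arrays per group.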
